A study of Rattus norvegicus with 2 samples.

Results

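Of the SP1-bound intervals in rat left ventricle, 351 of the 7049 on chromosomes 1 to 20 carried 2 or more summits, and these are described here. The 351 were chosen by the deposited peak list itself, as intervals with the same chromosome, start and end on 2 or more lines that differ in summit position. The number of summits and the widths, heights and distances of these intervals therefore describe the selection, and no test was made on them. The complete list, with the sex chromosomes and scaffolds, held 7129 intervals.

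The data are a chromatin immunoprecipitation sequencing (ChIP-Seq) experiment in male, WT Sprague-Dawley rats given a sham treatment, in which DNA crosslinked to specificity protein 1 (SP1) was pulled down with an antibody and sequenced. There were 2 libraries, 1 SP1 immunoprecipitate (IP) and 1 input of chromatin without antibody, and the peak list analysed here belongs to the IP. The labels mention both myocardium of the left ventricle and isolated primary cardiomyocytes, and give neither an age nor a number of animals, whereas the study describes its ChIP assay in aged donor hearts. With 1 library per group there was no replicate check, so the intervals given here cover counting error, or the spread between genomic intervals, and not the variation between hearts.

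SP1 is a zinc finger transcription factor that binds GC-rich elements, the GC boxes, in promoters of housekeeping and regulated genes. GC boxes often occur in clusters, and SP1 molecules on neighbouring boxes can interact with one another. A peak caller reports 1 interval where enrichment is continuous, and a summit for each local maximum that it finds inside. Gene positions and sequence of the build of this list were not used here, so the intervals are named by position as the list gives them, and they are not assigned to promoters, genes, exons or introns.

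Most of the 351 intervals held a pair of summits. There were 318 intervals with 2 summits, 31 with 3 and 2 with 4, which together were 4.98% of the intervals (Wilson 95% confidence interval 4.50% to 5.51%). They held 737 of 7435 summits, or 9.91% (9.25% to 10.6%), and 10.1% of the length that intervals covered. Hence this small class carried about as large a share of the summits as of the covered sequence.

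Adjacent summits of an interval were mostly spaced more widely than the narrowest interval of the list, 192 bp. The 386 distances had a median of 334 bp (95% interval of the median 321 to 349 bp), quartiles of 272.5 and 419.75 bp and a range of 60 to 971 bp. Most of them, 309 or 80.1% (75.8% to 83.7%), were between 200 and 500 bp, and 49 or 12.7% (9.74% to 16.4%) were larger. Distances in the intervals with 3 summits had a median of 309.5 bp (290 to 355 bp), which overlaps that of the intervals with 2 summits, 336 bp (326 to 353 bp).

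Few of the distances were smaller than the width of the narrowest interval. Only 22 of the 386 distances, or 5.70% (3.79% to 8.48%), were under 192 bp. Separate intervals always had at least 193 bp between them. The closest summits lay 60 bp apart on chromosome 1, positions 181009940 to 181010748, with 20 tags and 16 tags (a tag being a sequenced fragment end or fragment as the peak caller counted it). The next closest were 108 bp apart on chromosome 2, positions 51523645 to 51524153, with 7 tags each, and 118 bp apart on chromosome 1, positions 156326257 to 156326728, with 11 and 8 tags. The other 2 of the 5 smallest distances were 126 bp on chromosome 6, from position 46580696, and 128 bp on chromosome 1, from position 206626795. Summits this close can be covered by the same fragments, and their heights are then not separate measurements.

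**Figure D1:**
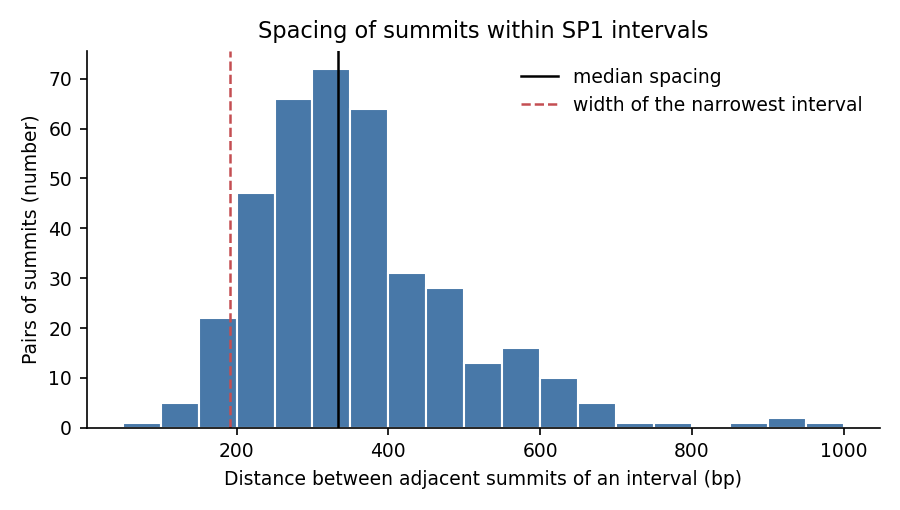
Distances in bp between the 386 pairs of adjacent summits that share an interval, in bins of 50 bp; the vertical axis counts pairs. The bin from 300 to 349 bp is the fullest with 72 pairs, the solid line marks the median of 334 bp, and 22 pairs lie below the dashed line at 192 bp, the width of the narrowest interval in the list.

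The widest pairs came from 5 intervals. On chromosome 6, positions 95095346 to 95097056, the summits lay 971 bp apart with 8 tags each. On chromosome 14, positions 14811965 to 14813186, they lay 908 bp apart with 21 and 7 tags, and on chromosome 9, positions 94017355 to 94018659, 907 bp apart with 12 and 7 tags. The largest distances in the remaining 2 were 880 bp, in an interval with 3 summits on chromosome 20 from position 54416433, and 781 bp on chromosome 10 from position 57225619. In none of these 5 did the weak summit exceed 9 tags.

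Summits at such distances were more often placed in separate intervals. Between 300 and 399 bp, 136 pairs of adjacent summits shared an interval and 4 faced each other from neighbouring intervals. The counts were 59 and 55 between 400 and 499 bp, 29 and 66 between 500 and 599 bp, 17 and 116 between 600 and 799 bp, and 4 and 89 between 800 and 999 bp. Thus the share in the same interval fell from 97.1% (92.9% to 98.9%) to 4.30% (1.69% to 10.5%). These pairs are those just inside and just outside the selection, and below 373 bp no pair was placed in separate intervals. Separate intervals always had at least 193 bp between them and reach beyond their summits. Close summits could therefore hardly fall in separate intervals, and the fall in the share is partly set by this. In all, 297 pairs of single-summit intervals had facing summits within 971 bp, the largest distance seen inside an interval.

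The 10 intervals of highest fold enrichment at their strong summit had ratios of weak to strong tags from 0.115 to 0.821. The strong summit is the one with more IP tags, and the fold is the deposited enrichment over background at that point. On chromosome 4, positions 76778162 to 76778797, the strong summit had 136 tags and a fold of 96.0 (80.6 to 113 from the exact Poisson interval of its tags), and the weak summit, 363 bp away, had 20 tags and a fold of 15.5. The second interval lay 10.2 kb from it on the same chromosome, positions 76767318 to 76767984. It had 124 tags and a fold of 76.2 (63.4 to 90.7) at the strong summit and 56 tags and a fold of 39.9 at the weak summit. That weak summit was the highest weak summit among the 351 intervals, both in tags and in fold.

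In other intervals of this list a tall summit stood beside one of ordinary height. On chromosome 5, positions 146035863 to 146037142, 61 tags were 631 bp from 7 tags, with folds of 46.8 and 6.02. On chromosome 17, positions 9919269 to 9920278, 45 tags were 436 bp from 8 tags, and on chromosome 11, positions 35378768 to 35379413, 31 tags were 381 bp from 8 tags. These 3, the highest interval on chromosome 4 and the one on chromosome 14 named for its distance were the 5 with the largest ratio of strong to weak fold, from 3.26 to 7.76.

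The other 5 of the 10 had strong summits of 25 to 30 tags. On chromosome 1, positions 77597736 to 77598577, 28 tags stood 217 bp from 23 tags. On chromosome 10 there were 2, with 30 and 10 tags from position 82174470, and with 27 and 12 tags from position 71573121. On chromosome 19, from position 44971480, the summits had 29 and 10 tags, and on chromosome 17, from position 29118255, 25 and 11 tags. In these 5 intervals the strong fold ranged from 19.2 to 23.4 and the weak fold from 7.51 to 17.7.

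The 2 intervals with 4 summits had lower folds than these 10. On chromosome 12, positions 16314172 to 16315929, the summits had, in order along the chromosome, 9, 7, 13 and 12 tags, with distances of 407, 403 and 651 bp. On chromosome 3, positions 16430635 to 16432225, they had 10, 9, 19 and 9 tags, with distances of 253, 280 and 634 bp. In both the third summit was the strongest, with folds of 10.4 and 15.1 beside a median of 8.95 over the 351, but the exact Poisson 95% interval of its tags overlapped that of every other summit of its interval (on chromosome 3, 11.4 to 29.7 tags against 4.12 to 17.1 tags for the weakest).

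**Figure D2:**
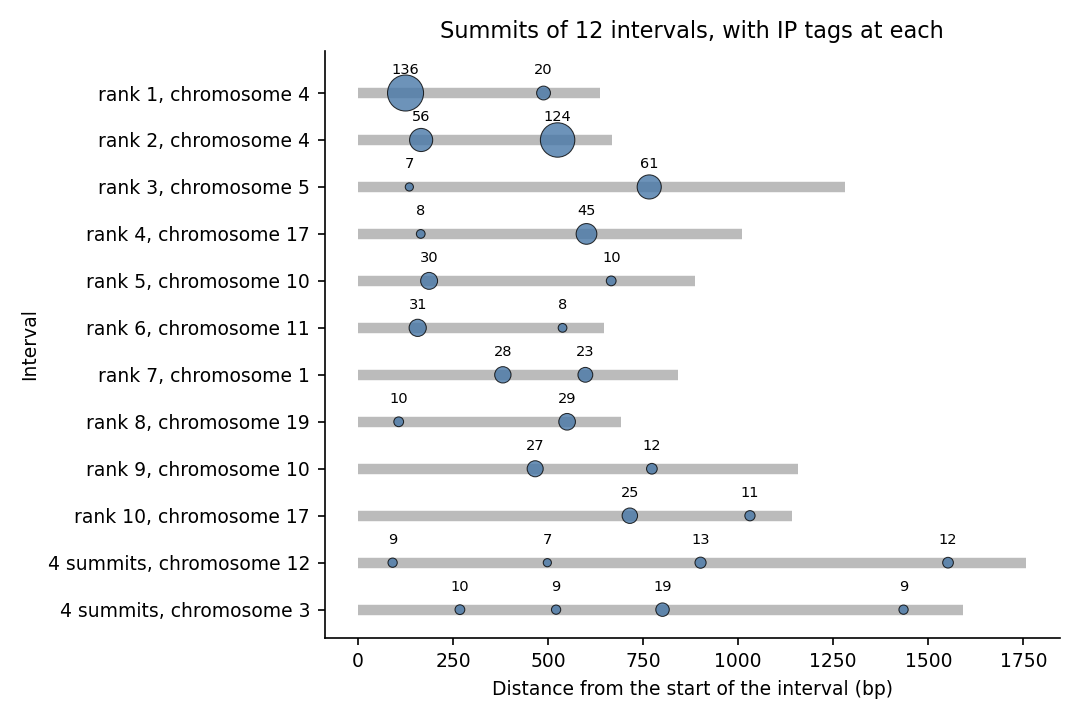
Maps of the 10 intervals of highest fold (ranked 1 to 10) and the 2 intervals with 4 summits; grey bars are intervals drawn to scale in bp from their start, and circles are summits with an area in proportion to their IP tags, which are printed above them. In rank 1 on chromosome 4 the summits have 136 and 20 tags, in rank 2 they have 124 and 56, and the 8 summits of the lower 2 maps have 7 to 19.

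Across all 351 intervals the summits were mostly low. The strong summit had a median of 11 tags (quartiles 9 and 14, range 6 to 160) and the weak summit a median of 8 tags (quartiles 7 and 9, range 5 to 56). The ratio of weak to strong tags had a median of 0.769 (95% interval 0.727 to 0.80), with quartiles of 0.615 and 0.889. The summits had equal tags in 39 intervals, or 11.1% (8.24% to 14.8%), and differed by 1 or 2 tags in 132 others. In 30 intervals, or 8.55% (6.05% to 11.9%), the weak summit had less than 0.5 of the tags of the strong summit.

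The counting intervals of the strong and the weak summit overlapped in most of the 351. A summit of 11 tags has an exact Poisson 95% interval of 5.49 to 19.7 tags, and a summit of 8 tags one of 3.45 to 15.8. The intervals of the strong and the weak summit were apart in 12 of 351, or 3.42% (1.97% to 5.88%). In the other 339 they overlapped, which is not a test of the difference between the summits, and none was made because the counts themselves set which summit is the strong one. In 5 intervals the summit with more tags had the lower fold, because the expected tags from input differed between the summits. The most marked of these was on chromosome 8, positions 20096338 to 20097012, where 10 tags had a fold of 5.32 and 8 tags a fold of 6.30. The others lay on chromosome 7 from position 9447702, chromosome 9 from 1549384, chromosome 5 from 141535106 and chromosome 1 from 202673812.

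The height of the weak summit rose only slightly with that of the strong one. By definition it cannot exceed the strong summit, and it had at least 5 tags in every interval. Its range is thus limited by the selection, most of all where the strong summit is low. Where the strong summit had 10 tags or fewer, 150 intervals, the weak summit had a median of 8 tags (95% interval 7 to 8). Where it had 11 to 14, 124 intervals, the median was 9 (8 to 9), and where it had 15 or more, 77 intervals, it was 9 (9 to 10). Therefore the ratio of weak to strong tags fell over the same classes, from 0.875 to 0.727 and 0.545, and part of this is set by dividing by the strong tags. The distance between the summits made little difference to the ratio, with a median of 0.80 (0.750 to 0.818) in 113 intervals with 2 summits under 300 bp apart and 0.769 (0.727 to 0.80) in 205 at larger distances.

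**Figure D3:**
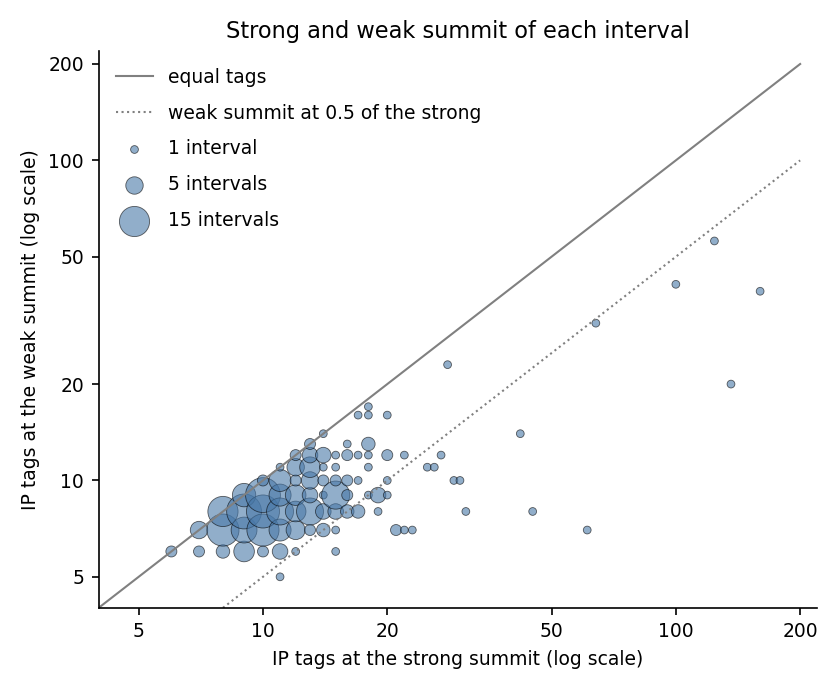
IP tags at the strong (horizontal, log scale) and weak summit (vertical, log scale) of the 351 intervals; the area of a circle gives the number of intervals at that pair of counts. Most circles lie between the line of equal tags and the dotted line at 0.5, while the strong summits reach 160 tags and the weak ones 56.

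Weak summits were well above the threshold of the list in most intervals. The −log10 q of the weak summit had a median of 6.20 and a minimum of 1.58, and it was at least 5 in 243 intervals, or 69.2% (64.2% to 73.8%). Another summit of such an interval can still be lower, as on chromosome 8 from position 20096338, with 4.21 at the strong summit. At least 10 was reached by every summit in 45 intervals, and by the best summit in 183, or 52.1% (46.9% to 57.3%). The 5 intervals with the lowest best −log10 q, from 3.62 to 4.49, had strong summits of 6 to 8 tags. They lay on chromosome 5 from position 146681169, chromosome 3 from 7861651, chromosome 7 from 9447702, chromosome 1 from 226678924 and chromosome 2 from 51523645.

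The strong summit lay more often at the higher coordinate, but many of these summits differed by 1 or 2 tags. In the 279 intervals with 2 summits of unequal tags, the strong summit had the higher coordinate in 162, or 58.1% (52.2% to 63.7%), and the lower coordinate in 117. Among the 156 whose summits differed by 3 or more tags, a limit chosen after the values were seen, it had the higher coordinate in 90, or 57.7% (49.8% to 65.2%), and among the 11 with 2 summits whose Poisson intervals were apart in 6, or 54.5% (28% to 78.7%), and both of these intervals include an even split. With the weak summit at a −log10 q of at least 5 the share was 57.7% (50.5% to 64.5%) of 189 intervals. Single-summit intervals of at least 418 bp, the width of the narrowest member, leaned the other way, with the summit below the middle in 54.0% (52.0% to 56.0%), and single-summit intervals with a −log10 q of at least 10 did not lean, with 49.9% (46.6% to 53.3%). The part of the caller's placement of summits in these shares was not tested. In the 24 intervals with 3 summits and a single strongest one, it was the middle one in 9 (37.5%, 21.2% to 57.3%).

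Intervals with several summits were wider than others. Their median width was 770 bp (95% interval 747 to 814 bp, range 418 to 1864 bp) compared with 342 bp (336 to 347 bp, range 192 to 1580 bp) in single-summit intervals. The stretch from the first to the last summit filled a median of 47.5% of the width, and beyond it the list extended a median of 167 bp below and 179 bp above. No interval under 418 bp had several summits, which leaves 4371 of 6698 single-summit intervals without a counterpart. The 2327 wider single-summit intervals reached a median of 161 bp on the short side of their summit and 382 bp on the long side.

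The share with several summits rose steeply with width. It was 1.54% (0.948% to 2.48%) of 1041 intervals of 400 to 499 bp, 13.6% (10.8% to 17.0%) of 456 intervals of 600 to 699 bp, 33.1% (27.5% to 39.1%) of 248 intervals of 800 to 999 bp and 68.4% (52.5% to 80.9%) of 38 intervals of 1200 bp or more. Within a width class the share was lowest where the best summit had few tags. From 500 to 599 bp it was 1.09% (0.372% to 3.16%) where the best summit had up to 7 tags, 10% (6.87% to 14.3%) with 8 to 10 tags and 11.1% (7.38% to 16.4%) with 11 or more, and from 600 to 699 bp it was 0.794%, 17.4% (12.5% to 23.7%) and 19.7% (14.2% to 26.8%). From 700 to 799 bp it was 1.59% (0.281% to 8.46%) where the best summit had up to 7 tags, 22.7% (15.9% to 31.4%) with 8 to 10 tags and 32.1% (24.1% to 41.4%) with 11 or more. From 800 to 999 bp it was 4.65%, 29.4% (20.8% to 39.8%) and 45.8% (37.2% to 54.7%). In all 4 classes the intervals of the upper 2 tag ranges overlap, and the best summit of several is the highest of them, which moves such intervals towards the upper ranges.

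Next, each interval was set against single-summit intervals of the same 50-bp width class. This was possible for 347 of the 351, since 4 had no single-summit interval in their class, and 22 had fewer than 5. The strong summit had a higher fold than the median of its class in 286 and a lower one in 59, with a median difference of 1.54 in fold (95% interval 1.28 to 2.03) and of 2 tags (2 to 3). The strong summit is the highest of several, which raises it, as the weak summit is lowered. The weak summit had a median difference of −0.31 in fold (−0.52 to −0.21).

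Measures that do not pick the highest summit gave smaller differences. The mean fold over the summits of an interval lay above its class by a median of 0.68 (0.53 to 0.87), higher in 243 and lower in 104. The summit at the lowest coordinate lay above it by 0.34 (0.06 to 0.60) and that at the highest coordinate by 0.59 (0.39 to 0.78). The sign also depended on the threshold: among intervals with a best −log10 q of at least 10, the strong summit lay 0.43 in fold below single-summit intervals of its class (interval −0.75 to 0), and that threshold acts on the height itself. In tags, the mean over the summits lay above the class by a median of 1 (0.5 to 1.5).

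**Figure D4:**
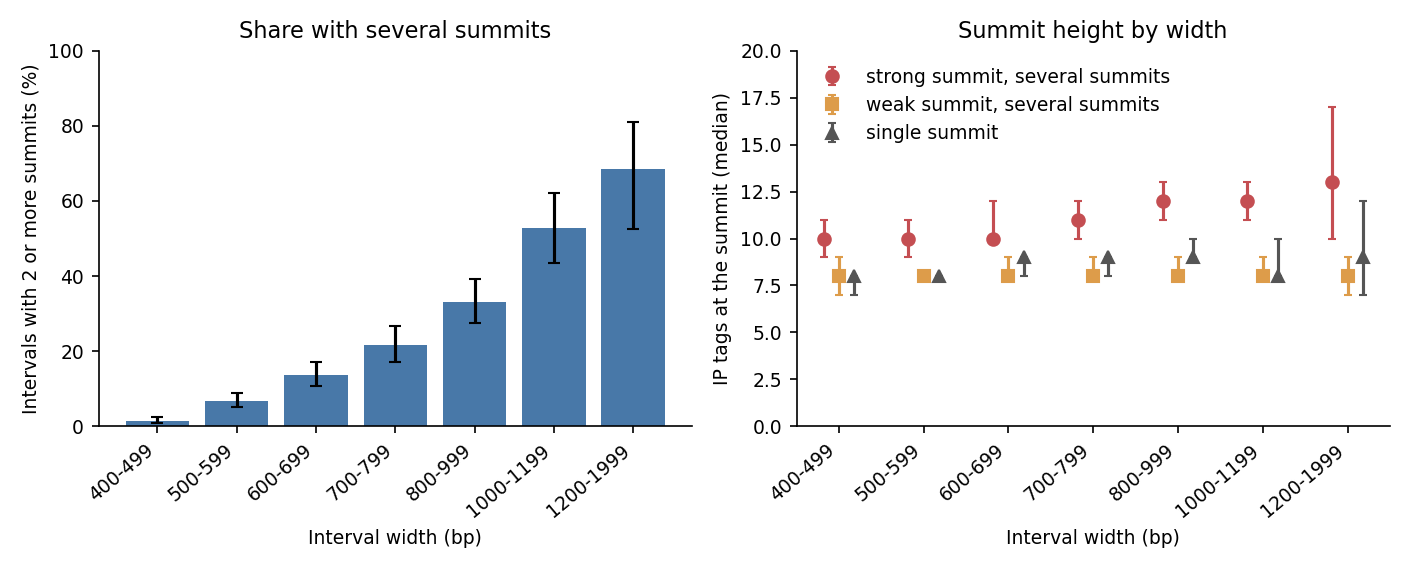
Left, the share of intervals with 2 or more summits in each width class, with Wilson 95% intervals, which rises from 1.54% to 68.4%. Right, the median IP tags at the strong and weak summit of intervals with several summits and at single summits, with 95% intervals of the median; the weak summits are at 8 tags in every class and single summits at 8 or 9, while strong summits go from 10 to 13.

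The expected tags at the strong summits, the measure of input used here, were not found to differ from those at single summits of similar width. The genome-wide level of 0.326 tags was the lowest value in the list, so differences in input below it are not seen. The expected tags at the strong summit were above the genome-wide level of 0.326 tags in 66.9% (61.7% to 71.6%) of the 347 intervals with a class and in 63.4% (59.4% to 67.1%) of single-summit intervals of similar width, a difference of 3.50 percentage points (95% interval −2.83 to 9.65). Expected tags of at least 2 times that level were found at the strong summit in 11 of the 347, or 3.17% (1.78% to 5.59%), compared with 1.82% (1.02% to 3.22%) at similar width, and these intervals overlap. At any summit they were found in 16 of the 347, or 4.61% (2.86% to 7.36%), a count that gives an interval 2 to 4 summits to reach the level where a single-summit interval has 1. The strong and the weak summit of an interval mostly had nearly the same expected tags, the larger being a median of 1.02 times the smaller, and in 37 intervals more than 1.5 times.

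High input was found in 4 intervals, with expected tags of 5 or more times the genome-wide level at any summit. They were 1.15% (0.449% to 2.93%) of the 347, compared with 0.0572% (0.00441% to 0.738%) at similar width and 0.567% (0.414% to 0.778%) of all single-summit intervals. At the strong summit alone the level was reached in 3, or 0.865% (0.294% to 2.51%), which overlaps both. On chromosome 16, positions 20087240 to 20088007, the level was 100.3 times, and 100 and 41 tags gave folds of just 3.0 and 2.45. On chromosome 19, positions 22760077 to 22760616, it was 63.6 times, and 160 and 39 tags gave folds of 7.41 and 4.48. On chromosome 12, positions 21228 to 21853, near the start of the sequence, it was 23.6 times, with folds of 8.07 and 3.68. The fourth, on chromosome 19 from position 51574631, was at 5.24 times and had 3 summits of up to 42 tags and a fold of 17.2. The fifth highest level, on chromosome 1 from position 252958824, was 3.28 times. The 3 strong summits of 64 tags or more among these rest on places where the input is also high, and the highest tag count of all 351, 160, is one of them.

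Intervals with several summits were not found to have neighbours more or less often than others. Another interval lay within 10 kb in 77 of 351, or 21.9% (17.9% to 26.6%). Among the 347 with a class the share was 21.3% (17.3% to 25.9%) compared with 20.9% (17.8% to 24.3%) at similar width, a difference of 0.47 percentage points (−4.77 to 6.0). Within 2 kb the shares were 11.2% and 12%, and within 50 kb 55.9% and 53.1%, in each case with Wilson intervals that overlap.

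Some intervals with several summits lay close to one another. Taken in order along the chromosomes, the 351 formed 331 successive pairs, of which 2 lay within 10 kb and 22 within 100 kb, 14 of these 22 with no single-summit interval between them. Among all 7049 intervals, which are denser along the genome, 943 of 7029 successive pairs lay within 10 kb and 3702 within 100 kb, so these counts are given side by side and not compared. The closest pair lay on chromosome 16, at 44575047 to 44575800 and 44576395 to 44577117, only 594 bp apart, with strong folds of 8.95 and 8.29. A further interval with several summits lay 38.1 kb below them, from position 44536073, with a fold of 10.6. On chromosome 20 an interval with 3 summits from position 54416433 and one with 2 from 54422858 were 4.83 kb apart, with folds of 8.29 and 15.8. The next were the pair on chromosome 4 described above, at 10.2 kb, and on chromosome 12 the interval with 4 summits, 13.9 kb from one with 2 that starts at 16299620, and in both of these pairs 1 single-summit interval lay between the members.

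The share with several summits varied moderately between chromosomes. It was highest on chromosome 6, with 24 of 317 intervals or 7.57% (5.14% to 11%), followed by chromosome 16 with 17 of 230 or 7.39% (4.67% to 11.5%). It was lowest on chromosome 2, with 10 of 421 or 2.38% (1.30% to 4.32%), and chromosome 13, with 5 of 208 or 2.40% (1.03% to 5.50%). The Wilson interval enclosed the overall 4.98% on 18 of the 20 chromosomes, all but 2 and 6. Had each width class kept its overall share, chromosome 2 would have held 17.8 such intervals and chromosome 6 would have held 19.5. Taken as shares of the intervals on these chromosomes, both values lie inside the Wilson intervals. Among 20 intervals of 95% a miss is also not unusual, so neither chromosome is set apart by these shares. Chromosome 10 was ordinary, with 32 against 31.96 from the widths, and chromosome 7, which carries *Cirbp*, had 26 against 28.2.

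**Figure D5:**
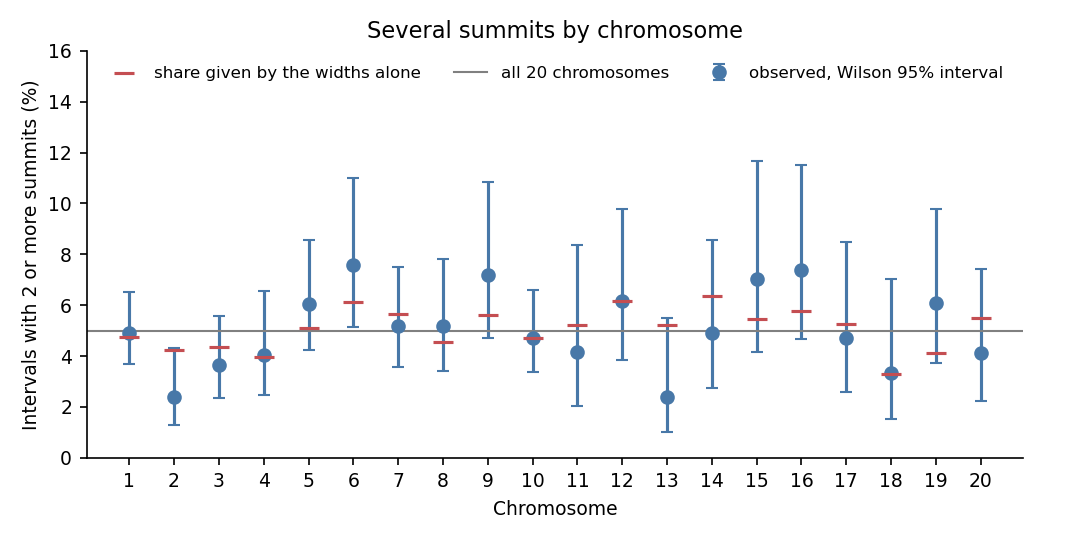
The percentage of intervals with 2 or more summits on chromosomes 1 to 20 (circles, with Wilson 95% intervals), the percentage that interval widths alone would give (red dashes) and the percentage over all 20 (grey line, 4.98%). Chromosomes 2 and 6 have intervals that do not include the line but do include the red dash.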

How the data were processed

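The deposited peak list has 10 columns and no header. Per the labels, chromatin was fixed with 1% formaldehyde for 10 minutes, and libraries had 15 amplification cycles and paired reads of 150 bases. The submitters' processing notes list fastp 0.20.0, Bowtie2 2.2.6, SAMtools 1.10, MACS2 2.2.7.1 and the build Rnor_6.0, without roles or settings. Scaffold names in the list are not those of Rnor_6.0, so the build was not settled. Gene and promoter tables at hand are of GRCr8 and were not used. The authors deposited the fold (a linear ratio) and −log10 p and q of each summit. The deposited score equals 10 times −log10 q, decimals dropped, in 100% of lines. The authors' positions, in bp from 0, are given here from 1.

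IP tags and expected tags of each summit were recovered in Python 3.11.15 (scipy 1.17.1) from fold = (tags + 1)/(expected + 1) and p = the Poisson probability of more tags, a reading of the columns that the sources used here do not state. Whole counts below 3000 were tried, within 0.0002 in −log10 p. All 7525 summits had exactly 1 match, and 100% of 2000 simulated peaks were recovered. The total depth of either library is unknown. The strong summit has the most tags and the weak one the fewest, ties going to the higher fold. Comparisons at similar width used single-summit intervals in 50-bp classes. Intervals of medians are from order statistics, and all intervals cover counting error or spread between regions only.

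Members and settings were chosen with earlier results of these data known. Named are the 10 intervals of highest strong fold, all with 4 summits, the 5 at either end of spacing and of the strong to weak fold ratio, the 5 of highest expected tags and the 5 of lowest best q. Planned results on promoters, divergent promoters, GC boxes, GC content, gene lists and cell type markers require a genome of matching build and were not run.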

Additional observations from a re-analysis of the deposited data

Results flagged for a closer look

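Outside chromosomes 1 to 20, which the comparisons did not use, 5 of 80 intervals had 2 or more summits. All 5 were among the 20 intervals on scaffolds, with 15 summits in all and strong folds of 17.1 to 40.9, while none of the 58 intervals on the X chromosome and neither of those on the Y chromosome had several. Their highest expected tags ran from 1 to 15.7 times the genome-wide level, with a median of 6.55, and the part of this raised input in the summits was not tested.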

How the results depend on the processing

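Of 44 values under other settings, 36 stayed within the interval of the reported value or, for the number of intervals, within 1.5 times. The spacing of summits and the comparisons of input and of neighbours did so in every setting tried. The limit of 1.5 times is wide: when only summits with a −log10 q of at least 5 were counted, 251 intervals with several summits remained of 351. With a best −log10 q of at least 10 there were 183 intervals with several summits, the ratio of weak to strong tags was 0.636 and the median width 840 bp, and the cause was not tested. The difference in fold from single-summit intervals of similar width, 1.54, was the value that depended most on the setting. It was 0.56 once a best −log10 q of 5 was required, −0.43 once 10 was required, and 1.06 when summits under 5 were not counted as summits. With the mean of the summits it was 0.68 and with the summit at the lowest coordinate 0.34. These last 2 settings and the ratio of folds in place of tags were added after the values were seen. The 4 planned results that need genes or sequence, with their alternatives, were not run. With 1 library per group no replicate could be left out. No paired analysis was possible because only 1 sample stands in either group. At this depth the tag intervals of the strong and weak summit overlapped in all but 12 intervals.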
